A study of Homo sapiens with 6 samples.

Results

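The genes described here are 10 genes of the epithelial-mesenchymal transition (EMT), chosen by name: the cadherins CDH1, CDH2 and CDH11, the intermediate filament gene VIM, the fibronectin gene FN1, and the transcription factor genes ZEB1, ZEB2, SNAI1, SNAI2 and TWIST1. A row was found for 9 of the 10 among the 17064 genes of the expression table, and TWIST1 is not analysed here. All 9 passed the filter on low counts that was applied before testing.

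EMT is the process in which epithelial cells loosen their junctions, lose apical-basal polarity and take on a motile, spindle-like shape. Factors of the SNAI and ZEB families bind E-box sequences and repress epithelial genes, above all CDH1, the gene of the junction protein E-cadherin. Vimentin, fibronectin and the cadherins CDH2 and CDH11 are commonly used as markers of the mesenchymal state. MDA-MB-231 is a triple-negative breast cancer line known for its mesenchymal shape and invasive growth.

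The study sequenced RNA of MDA-MB-231 cells after CRISPR-Cas9 deletion of the kinases MRCKα (gene CDC42BPA) and MRCKβ (CDC42BPB), which act downstream of Cdc42 on myosin and the actin cytoskeleton. The 6 libraries were 2 vector controls from separate transductions (vector 1 and vector 2), 1 MRCKα KO, 1 MRCKβ KO and 2 double knockouts made with different guide sets (DKO 1 and DKO 2). All cells carried the lentiviral lentiCRISPRv2 vector, empty in the controls, and the knockouts were pools of transduced cells from which no clones were picked. Each library held between 10349898 and 10657857 expected counts, which are estimated reads per gene, and levels are given as FPKM, which scales the reads of a gene by transcript length and library total.

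The targeted genes were measured first. CDC42BPA was at 36.4 FPKM in vector 1 and 23.3 in vector 2, with MRCKα KO at 29.4, MRCKβ KO at 34.9, DKO 1 at 28.3 and DKO 2 at 26.1, so that the libraries with a deleted MRCKα gene lay between the vector controls. CDC42BPB was at 30.3 FPKM in vector 1 and 29.1 in vector 2, with MRCKα KO at 27.3, MRCKβ KO at 25.7, DKO 1 at 23.4 and DKO 2 at 23.5. All 4 knockout libraries were thus below both controls for CDC42BPB, also MRCKα KO, in which this gene is not targeted. In DKO its fitted log2 fold change was -0.37 (unadjusted p = 0.0132 and adjusted p = 1.00 by edgeR's test), against -0.16 for CDC42BPA. The mRNA levels alone do not check the labels, since small insertions and deletions need not lower an mRNA, and protein was not analysed here.

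The label calls the cells epithelial, and this was compared with marker genes. All 5 epithelial markers (EPCAM, KRT8, KRT18, KRT19 and CDH1) reached 10 counts in a library, with summed levels of 461 FPKM in vector 1 and 403 in vector 2, with MRCKα KO at 403, MRCKβ KO at 454, DKO 1 at 405 and DKO 2 at 314. KRT8 was the most abundant of them, at a mean of 185 FPKM, whereas EPCAM had a mean of only 1.94 FPKM and CDH1 0.45 FPKM. The cells thus held keratin mRNA at high levels with little mRNA of the adhesion molecules that define an epithelium. Of the breast luminal markers, 2 of 4 reached 10 counts, with sums between 3.18 and 5.04 FPKM, GATA3 as the most abundant gene, and FOXA1 at 0 in MRCKβ KO.

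Markers of other cell types were low. Of the 7 fibroblast markers, 3 reached 10 counts, and the sum was 10.4 FPKM in vector 1 and 3.68 in vector 2, with MRCKα KO at 4.56, MRCKβ KO at 7.24, DKO 1 at 6.07 and DKO 2 at 3.97. PDGFRB was the most abundant, at a mean of 3.06 FPKM, and DCN, LUM, PDGFRA and FAP were at 0 counts in at least 1 library. The endothelial sum was between 2.22 and 3.78 FPKM, with KDR the most abundant and CDH5 and VWF at 0 in some libraries. The leukocyte sum was between 0.47 and 2.17 FPKM, with CD14 the most abundant and CD3E at 0 in most libraries.

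VIM (gene ID 7431, chr10:17228259-17237593, plus strand, GRCh38) encodes vimentin, the main intermediate filament protein of mesenchymal cells. Its level was 1545 FPKM in vector 1 and 2052 in vector 2, with MRCKα KO at 1532, MRCKβ KO at 1641, DKO 1 at 1543 and DKO 2 at 1887. Vector 2 was the highest and DKO 2 the next, while vector 1, MRCKα KO and DKO 1 lay close together. With a mean of 1700 FPKM, VIM was in place 7 of all 17064 genes and made up between 65.0% and 74.7% of the summed FPKM of 16 intermediate filament genes with a row, without the linker gene PLEC. Reads of the antisense gene VIM-AS1, which overlaps VIM and was not analysed here, cannot be told apart from those of VIM, since no use of strand in counting is stated.

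The 250 bases before the start of VIM (RefSeq, GRCh38.p14, chr10:17227991-17228240, plus strand) are shown because VIM is by far the most abundant of the genes. Capitals mark matches to a TATA box (TATAA or TTATA) and a GC box (GGGCGG or CCGCCC).
VIM: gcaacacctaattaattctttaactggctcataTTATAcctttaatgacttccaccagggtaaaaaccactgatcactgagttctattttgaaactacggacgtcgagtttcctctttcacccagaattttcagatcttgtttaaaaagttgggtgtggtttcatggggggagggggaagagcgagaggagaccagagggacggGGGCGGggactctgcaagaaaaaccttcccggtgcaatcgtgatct
The window holds 1 GC box, a motif found in 42.6% of 35116 promoter windows of this length, and 1 TATA-like match far from the start. Neither CACCTG nor CAGGTG, the E-box letters bound by SNAI and ZEB factors, is in this window, and 17.5% of all windows hold at least 1 of them.

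FN1 (gene ID 2335, chr2:215360440-215436172, minus strand) encodes fibronectin, a matrix glycoprotein bound by integrins. Its level was 38.1 FPKM in vector 1 and 20.1 in vector 2, with MRCKα KO at 30.0, MRCKβ KO at 39.6, DKO 1 at 32.8 and DKO 2 at 45.7. Vector 2 was the lowest of the 6 libraries and DKO 2 the highest, and vector 1 lay above MRCKα KO and DKO 1. The highest value was 2.27 times the lowest, from between 1716 and 3909 counts, and the cause of this spread was not tested. FN1 was low in the same control library in which VIM was high, and VIM exceeded FN1 by 102 times in vector 2 against 40.5 to 51.1 times in the other libraries, on the FPKM scale.

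The promoter of FN1 is shown because FN1 varied the most among the well-expressed genes. Of the 250 bases before its RefSeq start, the 146 upstream of any FN1 exon of GENCODE v29 are given (GRCh38.p14, chr2:215436173-215436318, minus strand), with capitals for a cAMP response element (TGACGTCA), a CCAAT box (CCAAT or ATTGG) and GC boxes, which overlap each other.
FN1: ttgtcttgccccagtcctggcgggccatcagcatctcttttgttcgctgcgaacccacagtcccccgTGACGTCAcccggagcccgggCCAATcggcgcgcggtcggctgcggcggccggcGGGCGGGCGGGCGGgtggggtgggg
The cAMP response element begins 183 bases before the start and is found in 1.65% of all windows of 250 bases, and the CCAAT box begins 162 bases before the start and is found in 32.0%. The whole window of FN1 had 6 GC boxes, a TATA box (TATAA) beginning 28 bases before the start, and a GC content of 76.4%, against 46% in that of VIM. These matches are descriptions of the sequence and were not tested for binding.

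The cadherins are calcium-dependent adhesion proteins of cell junctions. CDH11 (gene ID 1009, chr16:64943753-65126112, minus strand), a cadherin of mesenchymal cells, was at 57.8 FPKM in vector 1 and 43.3 in vector 2, with MRCKα KO at 49.6, MRCKβ KO at 59.0, DKO 1 at 54.1 and DKO 2 at 48.0. Vector 2 was again at the end of the range, here the lowest, and both DKO libraries lay between the controls. CDH11 made up between 97.1% and 99.0% of the summed FPKM of CDH1, CDH2 and CDH11.

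CDH1 (gene ID 999, chr16:68737225-68835548, plus strand) was at 0.25 FPKM in vector 1 and 0.64 in vector 2, with MRCKα KO at 0.40, MRCKβ KO at 0.50, DKO 1 at 0.47 and DKO 2 at 0.43. The vector controls marked both ends of this range, and all knockouts lay between them. These levels rest on between 13.4 and 33.1 expected counts, which are not whole numbers as RSEM gives where reads map to more than 1 gene. CDH2 (gene ID 1000, chr18:27950966-28177446, minus strand), the gene of N-cadherin, was at 0.36 FPKM in vector 1 and 0.65 in vector 2, with MRCKα KO at 0.55, MRCKβ KO at 0.27, DKO 1 at 0.37 and DKO 2 at 0.32, from between 11 and 26 counts. The mesenchymal cadherin of these cells was thus CDH11, and neither of the classical markers of a cadherin switch exceeded 1 FPKM in a library.

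Among the other cadherins, 16 of 20 had a row and 6 were tested. CDH4, known as R-cadherin, followed CDH11 with a mean of 21.9 FPKM and a range of 17.9 in vector 2 to 24.7 in MRCKα KO. CDH24 had a mean of 5.56 FPKM and CDH13 1.18 FPKM. Over all 19 cadherins with a row, CDH11 made up between 58.7% and 65.3% of the summed FPKM.

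The SNAI factors are zinc finger repressors that start EMT in many settings. SNAI2 (gene ID 6591, chr8:48917604-48921740, minus strand), also known as Slug, was at 47.4 FPKM in vector 1 and 61.9 in vector 2, with MRCKα KO at 52.4, MRCKβ KO at 47.5, DKO 1 at 52.0 and DKO 2 at 52.9. Vector 2 was the highest library and vector 1 the lowest, with all knockouts between them. SNAI1 (gene ID 6615, chr20:49982999-49988886, plus strand), known as Snail, was at 1.15 FPKM in vector 1 and 0.79 in vector 2, with MRCKα KO at 0.85, MRCKβ KO at 0.88, DKO 1 at 1.28 and DKO 2 at 1.11, from only 14 to 23 counts. SNAI2 exceeded SNAI1 by between 40.6 and 78.3 times in each library on the FPKM scale, so that SNAI2 was by far the more abundant of the pair.

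The ZEB factors are larger repressors with clusters of zinc fingers at both ends. ZEB2 (gene ID 9839, chr2:144364364-144524583, minus strand) was at 5.0 FPKM in vector 1 and 4.57 in vector 2, with MRCKα KO at 5.05, MRCKβ KO at 5.05, DKO 1 at 5.81 and DKO 2 at 5.55. Both DKO libraries were above both controls. ZEB2-AS1 overlaps ZEB2 on the other strand and ZEB1-AS1 overlaps ZEB1. Neither antisense gene was analysed here, so the strand limit given for VIM holds for both. The limit also holds for CDH1 and CDH2, which the antisense genes AC099314.1 and AC110015.1 overlap.

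ZEB1 (gene ID 6935, chr10:31318495-31529814, plus strand) was at 21.6 FPKM in vector 1 and 24.0 in vector 2, with MRCKα KO at 24.0, MRCKβ KO at 23.3, DKO 1 at 22.3 and DKO 2 at 24.4. It varied the least of the 9 genes, with a coefficient of variation of 4.78% over the 6 libraries, and exceeded ZEB2 by between 3.83 and 5.26 times on the FPKM scale. Its expected counts were likewise not whole, in all 6 libraries. Together, SNAI2 and ZEB1 made up between 91.3% and 94.1% of the summed FPKM of the 4 measured transcription factors. The promoter table holds 7 starts of ZEB1, and the window of the first is shown (RefSeq, GRCh38.p14, chr10:31318167-31318416, plus strand) because it holds an E-box, with capitals for the E-box and a GC box.
ZEB1: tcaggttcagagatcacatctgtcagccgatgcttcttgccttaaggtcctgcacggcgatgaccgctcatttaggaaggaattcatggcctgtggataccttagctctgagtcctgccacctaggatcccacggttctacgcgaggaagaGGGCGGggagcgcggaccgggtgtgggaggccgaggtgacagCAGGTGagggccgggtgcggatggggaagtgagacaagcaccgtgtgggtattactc
The E-box CAGGTG begins 57 bases before the start. A further ZEB1 window held 2 E-boxes, and the windows of CDH2 and ZEB2 held none.

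In the order of mean levels, VIM came first, followed by SNAI2 (52.3 FPKM), CDH11 (52.0), FN1 (34.4), ZEB1 (23.3), ZEB2 (5.17), SNAI1 (1.01), CDH1 (0.45) and CDH2 (0.42). Of the 8 neighbouring pairs, 4 were separate over all 6 libraries: VIM and SNAI2, ZEB1 and ZEB2, ZEB2 and SNAI1, and SNAI1 and CDH1. The ranges overlapped for SNAI2 and CDH11, CDH11 and FN1, FN1 and ZEB1, and CDH1 and CDH2. CDH11 was nonetheless above FN1 within each of the 6 libraries, and FN1 above ZEB1 in 5, whereas the order of SNAI2 and CDH11 and that of CDH1 and CDH2 each held in only 3.

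The replicates were then compared with each other, using counts normalized by TMM (trimmed mean of M-values). Between the vector controls, 3 of the 9 genes (FN1, CDH1 and CDH2) were over 1.5-fold apart, against 18.0% of all 13123 genes tested. FN1 in vector 2 was lower than in vector 1 by a log2 ratio of -0.92, with an exact 95% interval of -1.0 to -0.83. The ratio was 0.42 for VIM, 0.39 for SNAI2 and -0.43 for CDH11, and none of these intervals included 0. CDH1 differed by 1.39, but with an interval of 0.43 to 2.44. CDH2 differed by 0.84, with an interval of -0.13 to 1.87, which includes 0. These intervals cover counting error only, and the reads carry no molecular identifiers.

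Between DKO 1 and DKO 2, 0 of the 9 genes were over 1.5-fold apart, against 11.8% of all genes tested. FN1 was higher in DKO 2 by a log2 ratio of 0.45 and VIM by 0.28, whereas SNAI2 differed by 0.01. In contrast to the vector controls, FN1 and VIM were thus both higher in the same DKO library.

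**Figure D1:**
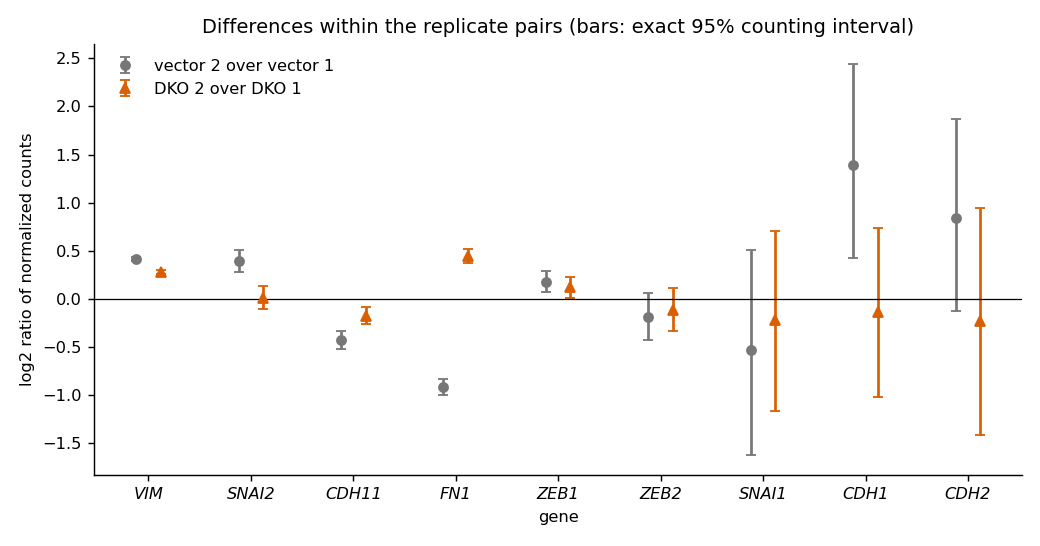
Log2 ratio of normalized counts between the replicates of vector control (circles) and of DKO (triangles) for each gene, with bars for the exact 95% counting interval. FN1 lies at -0.92 in the vector pair and 0.45 in the DKO pair, and the widest bars are those of SNAI1, CDH1 and CDH2.

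The comparison of DKO with vector control asked whether loss of both kinases changed these mRNAs. None of the 9 genes passed edgeR's quasi-likelihood test, with an adjusted p of 1.00 for each, and 0% of the 13123 genes tested had an adjusted p under 0.05. At an unadjusted p under 0.05 there were 0 of the 9 genes, against 313 of all genes (2.39%), and DESeq2 called 4 genes, of which 0 were among the 9. Fewer cells with an mRNA and less of it per cell cannot be told apart in such bulk RNA.

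By the fitted values, 6 genes were higher and 3 lower in DKO, with a median log2 fold change of 0.029, against -0.0024 over all genes tested, and the median of the 9 moved between -0.065 without vector 1 and 0.11 without vector 2. The number higher was the same with DESeq2, upper-quartile and library size normalization, but was 4 without vector 1, 7 without vector 2 and 5 without either DKO library. For VIM, 1799 ± 359 FPKM (SD, n = 2) in vector control stood against 1715 ± 244 in DKO. Its fitted log2 fold change was -0.09 (95% interval -0.54 to 0.36), and turned to 0.13 without vector 2 and 0.039 without DKO 1. It was -0.28 without vector 1 and -0.24 without DKO 2. SNAI2 was at 54.6 ± 10.2 FPKM in vector control and 52.4 ± 0.59 in DKO, and CDH11 at 50.6 ± 10.3 and 51.0 ± 4.38. For ZEB1, the values were 22.8 ± 1.70 and 23.4 ± 1.51 FPKM, with the narrowest interval of the 9 genes, -0.28 to 0.32. A change of 2-fold in either direction was thus outside the interval for VIM, SNAI2, CDH11, ZEB1 and ZEB2. Leaving out a library also turned the fitted direction of SNAI2, CDH11 and ZEB1.

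FN1 had the highest fitted value, 0.40 (95% interval -0.34 to 1.14), with 29.1 ± 12.7 FPKM in vector control and 39.2 ± 9.12 in DKO. Both DKO libraries were above vector 2, but DKO 1 was below vector 1, so the groups overlapped. The value moved with the library left out: it was 0.93 without vector 1 (adjusted p = 0.336 by edgeR's test, with the lone control assumed to vary like the DKO libraries), 0.012 without vector 2, 0.60 without DKO 1 and 0.16 without DKO 2.

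ZEB2 was at 4.79 ± 0.30 FPKM in vector control and 5.68 ± 0.18 in DKO, with a fitted log2 fold change of 0.21 (95% interval -0.16 to 0.58), which was 0.12 without vector 2. It was the only 1 of the 9 genes whose DKO and vector libraries did not overlap, against 29.0% of all genes tested, and it was the same gene with library size or upper-quartile normalization and on the FPKM scale. For the 3 genes with few counts, the intervals were wide: -0.86 to 1.42 for SNAI1, -1.33 to 1.40 for CDH1 and -1.83 to 0.69 for CDH2. Each of these intervals includes a 2-fold change in at least 1 direction.

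**Figure D2:**
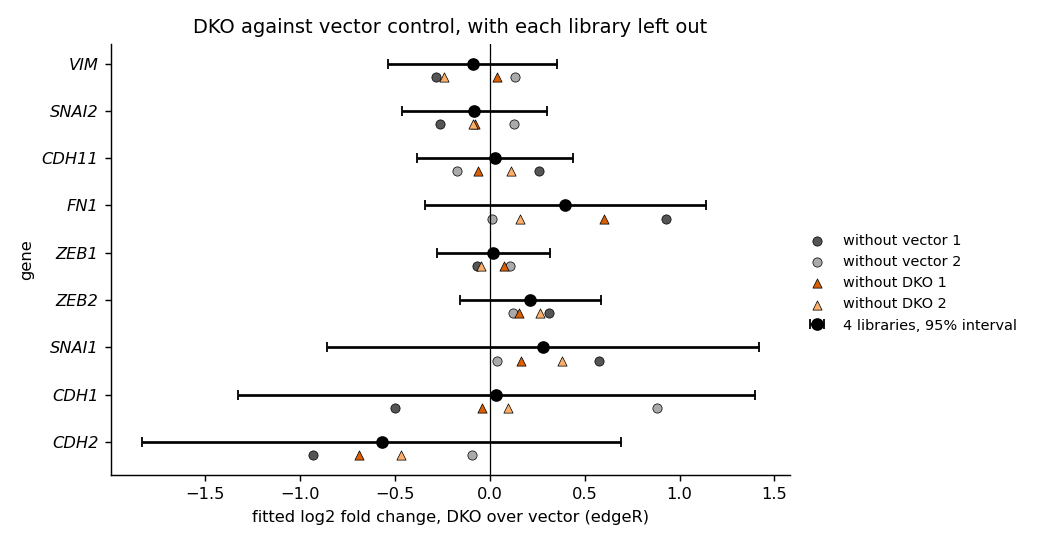
Fitted log2 fold change of each gene in DKO over vector control with its 95% interval (black), and the same value with each library left out (small symbols below). All 9 intervals include 0, and FN1 moves between 0.012 and 0.93 with the library left out.

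By the fold rule of the study's methods, genes more than 2-fold apart between replicates were left out, the others were averaged, and an FPKM ratio of at least 2-fold in either direction counted as changed. CDH1 was left out, since it was 2.56-fold apart between the vector controls. Of the other 8 genes, 0 were past the rule in DKO, against 1.78% of all genes with a ratio, and the log2 FPKM ratios ran from -0.55 for CDH2 to 0.43 for FN1.

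The single knockouts were 1 library each, so their differences have no replicate check. In MRCKα KO, 0 of 8 genes were past the rule, against 4.42% of all genes with a ratio. The log2 FPKM ratios against the mean of the controls lay between -0.23 for VIM and 0.12 for CDH2. VIM, at 1532 FPKM, was below both controls, but close to vector 1, with a log2 count ratio of -0.02 against vector 1 and -0.44 against vector 2. FN1 lay between the controls, at -0.34 against vector 1 and 0.58 against vector 2, so that its direction turned with the control library.

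In MRCKβ KO, 0 of 8 genes were past the rule, against 3.53% of all genes with a ratio. FN1 had a log2 FPKM ratio of 0.44 and CDH11 of 0.22, and both were above both controls in this library, though near vector 1. Against vector 1, the log2 count ratio was 0.05 for FN1 (exact 95% interval -0.02 to 0.12) and 0.03 for CDH11 (-0.05 to 0.12), and against vector 2 it was 0.97 and 0.46. CDH2 was below both controls, with a log2 FPKM ratio of -0.90, but from 11 counts, and the interval of its count ratio was -2.03 to 0.07. Against vector 1 alone, CDH1 was past the rule in MRCKβ KO, and against vector 2 alone CDH2 was. The knockouts share their controls, so the ratios of the 3 comparisons are not independent of each other.

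**Figure D3:**
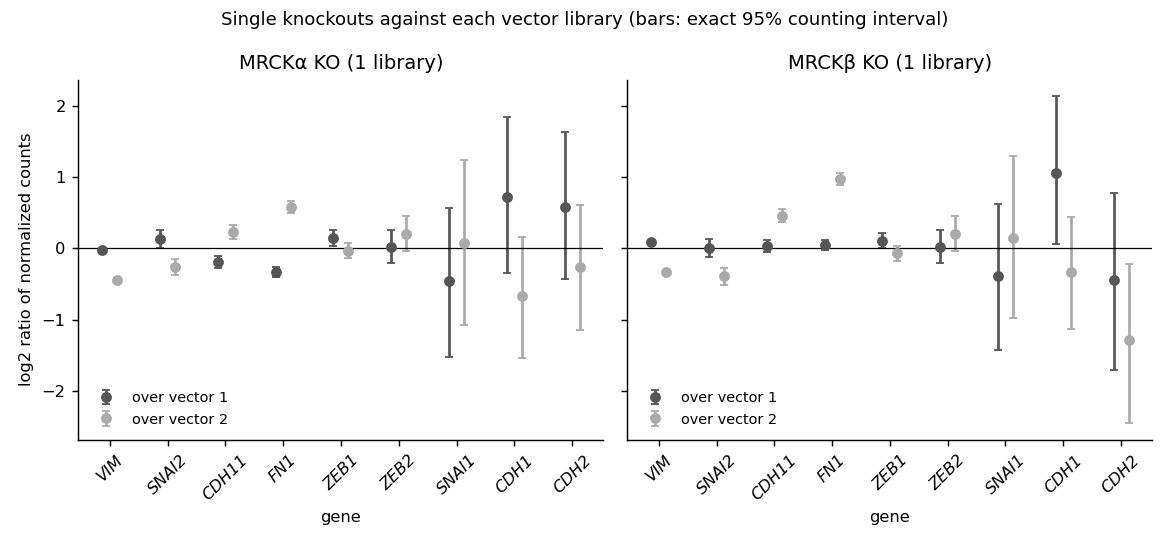
Log2 ratio of normalized counts of MRCKα KO (left) and MRCKβ KO (right) over each vector library, with bars for the exact 95% counting interval. For FN1, MRCKβ KO lies at 0.05 against vector 1 and at 0.97 against vector 2.

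Further genes of EMT were taken from 11 lists with 144 genes, of which 127 had a row and 97 were tested in DKO. With edgeR, 0 of the 97 passed the threshold of 0.05 after adjustment. Before adjustment 2 had a p under 0.05, both lower in DKO, which is 2.06% against 2.39% of all genes tested. The median log2 fold change of the 97 genes was -0.06. By the fold rule, 6 of 90 list genes with a ratio (6.67%) were past it for MRCKα KO, against 4.42% of all genes. For MRCKβ KO it was 3 of 91 (3.30%, against 3.53%), and for DKO 0 of 80 (against 1.78%). The list of 4 antisense neighbours had 0 genes with a row and was not analysed here.

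Among the epithelial junction genes, 15 of 18 were tested and had a median of -0.04, with 7 higher and 8 lower, and the median moved between -0.27 and 0.24 when a library was left out and was -0.11 with the replicate number as a block. TJP1 and PKP2, which encode proteins of tight junctions and desmosomes, had means of 27.9 and 20.0 FPKM. EPCAM, an epithelial adhesion molecule, was at 2.62 FPKM in vector 1 and 2.47 in vector 2, with MRCKα KO at 0.73, MRCKβ KO at 1.86, DKO 1 at 2.17 and DKO 2 at 1.82, and was past the rule in MRCKα KO at a log2 ratio of -1.80 (exact 95% interval of the log2 count ratio -2.78 to -0.98). CLDN1, a claudin of tight junctions, was past it in the other direction, at 4.92 FPKM in MRCKα KO against 2.08 and 1.39 in the controls (interval 1.14 to 1.82). These intervals cover counting error in single libraries and not the spread between replicates. The value of CLDN1 was 4.60 FPKM in DKO 1 but 2.25 in DKO 2, and it did not pass edgeR's test in DKO.

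Of the epithelial regulators, 10 of 15 had a row and 6 were tested, with 3 higher and 3 lower in DKO. Their median of 0.16 turned to -0.14 without vector 2 and -0.13 without DKO 1, and was 0.39 without vector 1 (5 genes tested) and 0.57 without DKO 2. SPINT2, a membrane protease inhibitor, was the most abundant, with a mean of 97.3 FPKM, followed by AP1M2 at 17.4 and ESRP2, an epithelial splicing factor, at 1.64. GRHL1 was past the fold rule in both single knockouts, at 0.08 FPKM in MRCKα KO and 0.13 in MRCKβ KO against 0.27 and 0.25 in the controls. These are low levels, from 3 and 5 counts against 10 and 9, and the exact 95% intervals of the log2 count ratios, -4.06 to 0.10 and -2.73 to 0.52, include 0. The other cadherins had a median of -0.03, which was 0.07 without vector 1, -0.16 without vector 2, -0.07 without DKO 1, -0.015 without DKO 2 and 0.02 with the replicate number as a block. CDH3 in MRCKα KO (0.37 FPKM against 0.86 and 1.15, from 14 counts) and CDH23 in MRCKβ KO (0.35 against 0.99 and 1.15, from 9.9 counts) were past the rule. The exact 95% intervals of their log2 count ratios were -2.41 to -0.65 and -2.74 to -0.63. Both genes are named because they passed the rule on these same counts, so the intervals are no separate check. They cover counting error in single knockout libraries and not the spread between replicates.

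The main catenins, which link cadherins to actin, were far more abundant than CDH1, and of 5 tested genes of this list 1 was higher and 4 were lower in DKO, with a median of -0.16. This median was -0.012 without vector 1, -0.05 without DKO 2, -0.25 without vector 2 and -0.28 without DKO 1. CTNNA1 had a mean of 169 FPKM, CTNNAL1 139 and CTNNB1, the gene of β-catenin, 99.0. CTNNAL1 was at 145 and 157 FPKM in vector 1 and vector 2 and at 126 and 123 in DKO 1 and DKO 2, with a fitted log2 fold change of -0.31 and an adjusted p of 1.00 by edgeR's test. It was 1 of the 2 list genes with an unadjusted p under 0.05.

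Of the other mesenchymal genes, 19 of 22 were tested, with 7 higher and 12 lower in DKO and a median of -0.17. The most abundant were MSN, which encodes the actin linker moesin, at a mean of 358 FPKM, the receptor kinase gene AXL at 282, and S100A4 at 165. S100A4 varied the most of these, at 273 FPKM in vector 1 and 83.4 in vector 2, with MRCKα KO at 161, MRCKβ KO at 284, DKO 1 at 147 and DKO 2 at 43.7. As with FN1, vector 2 was far below vector 1, but DKO 2 was the lowest library for S100A4 and the highest for FN1. COL5A1, a fibrillar collagen gene, was the other gene with an unadjusted p under 0.05, at 9.98 and 14.8 FPKM in the controls and 7.29 and 6.31 in DKO, with a fitted log2 fold change of -0.88, which was -0.57 without vector 2 and -1.14 without vector 1. The list median moved between -0.20 without DKO 1 and 0.09 without vector 1.

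Of the other EMT transcription factors, 9 of 14 were tested, with 6 higher and 3 lower and a median of 0.12. Without DKO 2 there were 4 higher and 5 lower, with a median of -0.13, and without vector 1 it was 0.19. HMGA2, a chromatin protein that activates SNAI genes, had a mean of 44.4 FPKM, SOX9 30.1 and TCF3 23.5, so that these were in the range of SNAI2 and ZEB1. PRRX1 was past the rule in MRCKβ KO at 0.23 FPKM, a low level, from 10 counts against 5 and 4 in the controls (exact 95% interval of the log2 count ratio -0.32 to 2.61). The corepressors and SNAI1 turnover genes, of which HDAC2 (83.5 FPKM), HDAC1 (81.5) and CTBP1 (55.9) had the highest means, had a median of 0.01 over 10 genes, which moved between -0.08 and 0.005 when a library was left out.

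The list of other intermediate filament genes, which includes PLEC, had 11 of 17 genes tested, all lower in DKO by the fitted value, with a median of -0.20, though 0 had an unadjusted p under 0.05. Without PLEC, 10 of 10 were lower, with a median of -0.19. Of the 11, 10 were lower with library size normalization, 7 without vector 1 or DKO 2, 9 without vector 2 and 10 without DKO 1, and the median moved between -0.33 without DKO 1 and -0.08 without DKO 2. LMNA, a lamin gene of the nuclear envelope, had a mean of 185 FPKM, and the keratin genes KRT8 and KRT18 had 185 and 173. KRT8 was at 220 FPKM in vector 1 and 187 in vector 2, with MRCKα KO at 172, MRCKβ KO at 205, DKO 1 at 187 and DKO 2 at 138. All of these were far below VIM.

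The fibronectin receptor genes were all tested and had a median of -0.06, which turned to 0.10 without vector 2 and 0.04 without DKO 2, and was -0.10 without DKO 1 and -0.02 with the replicate number as a block. ITGB1, the β1 integrin subunit, had a mean of 361 FPKM, with 445 in vector 2 as its highest value, followed by SDC4 at 53.5 and ITGA5 at 29.2. In the TGF-beta pathway, which induces EMT in many epithelial cells, the median of the 10 genes was -0.04, and it was 0.11 without vector 1, -0.18 without vector 2 (8 of 10 lower) and -0.0098 without DKO 2. TGFB2 was at 50.3 FPKM in vector 1 and 18.7 in vector 2, with MRCKα KO at 52.9, MRCKβ KO at 49.5, DKO 1 at 48.2 and DKO 2 at 34.2, so that vector 2 was the lowest library as it was for FN1. TGFB1 and SMAD3 had means of 51.8 and 31.3 FPKM, and SMAD7, an inhibitor of the pathway, was past the rule in MRCKα KO at 0.90 FPKM against 2.21 and 2.15 in the controls (exact 95% interval of the log2 count ratio -1.75 to -0.53).

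For the 3 most abundant of the 9 genes, the genes with the most similar pattern were sought among 11705 genes with a mean of at least 1 FPKM, by Pearson correlation of log2(FPKM + 0.1) over the 6 libraries. These were ITGA6 (r = 0.998) and PSORS1C1 (r = 0.991) for VIM, PXMP2 (0.999) and SFXN2 (0.998) for SNAI2, and WDR60 (0.998) and LGALS8 (0.997) for CDH11. With only 6 libraries, 242 genes had an r over 0.9 with VIM, 285 with SNAI2 and 452 with CDH11, so these values only describe the libraries. ITGA6 was at 61.6 FPKM in vector 2 and 58.6 in DKO 2, against 51.0 to 53.0 in the other 4 libraries.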

How the data were processed

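RNA of 6 MDA-MB-231 libraries was sequenced by BGI on the BGISEQ-500 as single-end reads. The submitters' processing notes name HISAT, Bowtie2, RSEM and build GRCh38.p11, without versions. The expected counts deposited by the authors are raw estimates of the reads of each gene. FPKM as deposited was calculated at BGI and scales reads by transcript length and library total. Samples were grouped by their labels.

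Expected counts were rounded, filtered with filterByExpr, normalized by TMM and tested in DKO against vector control (4 libraries) with edgeR 4.0.16 (glmQLFit, glmQLFTest), with Benjamini-Hochberg adjustment over all genes tested and a threshold of 0.05. The procedure was tested on simulated counts. Intervals of fitted values use the standard error and the total degrees of freedom (residual plus prior), and count ratios have exact (Clopper-Pearson) 95% intervals on effective library sizes. The fold rule of the study's methods was applied to FPKM with no minimum level. The paper states that poorly expressed genes were excluded, so the shares past the rule can include genes that the study left out. A count of 0 allows up to 3 counts.

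Alternatives were DESeq2 1.42.0, other normalizations and filters, a replicate block, all 6 libraries in 1 fit, limma 3.58.1 on log2 FPKM values with a pseudocount of 0.1 or 1 (mean FPKM at least 0.5), other forms of the fold rule, and each replicate left out. Promoters are from RefSeq and were found for 5 of the 10 genes (VIM, FN1, ZEB1, ZEB2 and CDH2). Gene positions are from GENCODE v29.

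The genes and lists were chosen with earlier results of these data known. Named genes are the 10 genes, the 3 genes of each list with the highest mean FPKM, list genes with an unadjusted p under 0.05 or past the fold rule with at least 10 counts in a library, and the 2 most similar genes of the 3 most abundant genes. Not every gene of this rule is reported here.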

Additional observations from a re-analysis of the deposited data

How the results depend on the processing

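None of the 9 genes or the list genes tested had an adjusted p under 0.05 in DKO with any of the 13 alternatives. The list genes tested ran from 87 to 123, and limma tested 7 of the 9, since CDH1 and CDH2 were below its FPKM minimum. The lowest adjusted p of the 9 genes was 0.336, for FN1 without vector 1. Over all genes, DESeq2 called 4 genes, edgeR called 1 without vector 1 and 5 without DKO 1, and the other alternatives without a replicate block called 0. With the replicate number as a block, 0 of the 9 genes and 5 of all genes were called. Same-numbered libraries deviated together with a Pearson correlation of 0.30 across 13123 genes. Among genes with a mean of at least 100 counts it was 0.44. Nothing in the labels ties the replicate numbers to a batch.

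Of 113 fitted values under alternatives, 104 kept their direction, and the 9 that turned were all from leaving out a library; the cause was not tested. The values without each library ran from -0.28 to 0.13 for VIM, -0.26 to 0.13 for SNAI2, -0.17 to 0.26 for CDH11, -0.065 to 0.11 for ZEB1 and -0.50 to 0.88 for CDH1. Without a turn, they ran from 0.012 to 0.93 for FN1, 0.12 to 0.31 for ZEB2, 0.040 to 0.57 for SNAI1 and -0.93 to -0.093 for CDH2. By the fold rule, the 0 genes in MRCKβ KO became 1 without vector 1 (CDH2) and 1 without vector 2 (CDH1), with log2 FPKM ratios of -1.27 and 1.0, and with both controls and no gene left out for its replicates 0 of 9 were past it. The 0 genes in MRCKα KO and DKO and the 1 gene without overlap were the same under all their alternatives. The number of separate neighbours in the order of levels stayed within 1.5 times of 4, and the order itself was the same in 3 of 7 alternatives. For SNAI1, CDH1 and CDH2, between 11 and 33.1 counts a library make the counting intervals wide.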
